A study of Homo sapiens with 21 samples.

Results

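The comparison described here is of hTERT-HPNE cells harvested 24 h after 300 μM hydrogen peroxide (H2O2) with untreated cells of the same line, harvested at 0 h. Its members were taken by the column labels of the expression table: the 3 libraries of H2O2 at 24 h and the 3 untreated libraries, 6 of the 21 libraries of the series, with every gene whose values vary, 19694 of 23368. hTERT-HPNE is an immortalized, nontransformed human pancreatic line. Cells of every group grew in a mix of glucose-free DMEM and M3 BaseF with serum, added glucose, puromycin and 10 ng/ml of epidermal growth factor (EGF), and the medium was replaced with fresh medium at treatment. The other groups, also of 3 libraries each, were H2O2 at 4 h and 8 h and the radiomimetic drug neocarzinostatin (NCS, 400 ng/ml) at 4 h, 8 h and 24 h. H2O2 oxidizes DNA, proteins and lipids, while NCS cuts the DNA backbone. The labels number the 3 libraries of a group as replicates, and the paper calls them biological replicates. The p-values rest on the spread between libraries within groups, estimated over all 7 groups. No untreated library of 24 h is among the groups, so H2O2 and 24 h of further culture in fresh medium cannot be told apart in any difference from untreated cells. In bulk RNA, fewer dividing cells and less of a transcript in each cell cannot be told apart either.

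The libraries followed their labels. The Euclidean distance over the 19694 genes was 8.97 to 11.2 within a group and 39.1 to 41.4 between untreated and 24 h libraries. Read numbers cannot be recovered from the deposited log2-scale values, and the depth behind them is unknown. Of 8 markers of mesenchymal and nestin-positive progenitor cells, 7 passed the test, all slightly lower at 24 h, and their summed level went from 20.6 in each untreated library to 20.4 in each 24 h library. VIM lay between 17.0 and 17.1 in untreated cells and NES, the intermediate filament that names the line's cell type, at 12.1. Of 9 ductal epithelial markers 3 were higher and 1 was lower, and their summed level was 11.8 in each untreated and 11.7 in each 24 h library. The ductal markers KRT19, CFTR and EPCAM were at or below 0.657 in all 6 libraries. Others were expressed: KRT18 lay between 11.5 and 11.7, KRT8 between 7.73 and 8.07, KRT7 between 6.61 and 7.12 and SOX9 between 5.78 and 6.48. Of the acinar markers 3 of 6 were listed at 0, as was insulin, and none of the acinar, endocrine or immune markers passed the test. Of 4 endothelial markers only KDR passed, at 0.05 higher, and its level stayed below 0.

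A damaged cell that stops dividing does so largely through p53, a transcription factor that is destroyed by MDM2 in healthy cells and stabilized by stress. Its target p21, encoded by CDKN1A, inhibits cyclin-dependent kinases, which leaves the pocket proteins unphosphorylated, and together with E2F factors or the MuvB core they hold down the genes of DNA replication and mitosis. Oxidative stress also works through NRF2, which is released from KEAP1 and switches on antioxidant enzymes, and through kinases that slow protein synthesis and favour translation of ATF4, the integrated stress response.

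At 24 h after H2O2, genes of cell division were lower, and fewer genes were higher than lower by more than 1 on the log2 scale. A gene was called where its mean rLog value, the log2-scale value that the authors deposited, differed by more than 1 with an adjusted p-value under 0.05. By that rule 64 genes were higher, 0.325% of the genes tested, and 254 were lower, 1.29%. The fall exceeded 2 in 18 genes and the rise in 3. The median difference was 1.28 among genes called higher and -1.39 among those called lower, against a median of 0.00 over all genes. The libraries of both groups did not overlap for any of the 318 called genes, and neither did they for 59.7% of all 19694 genes. At the adjusted p-value alone, 3969 genes were higher, 20.2%, and 3911 were lower, 19.9%, so that 49.6% of these calls were lower. With library medians aligned before the fit, 3579 genes were higher and 6578 lower, 64.8% lower, and direction at differences of a few hundredths therefore depended on the scaling. Just inside the threshold were ARHGEF2 at 1.0043 and CENPL at -1.0011, and just outside it were PHLDA3 at 0.9995 and MIS18A at -0.9995.

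Calls also depended on the level of a gene. Of 8013 genes with a mean rLog value under 5, none was called at a difference over 1, and among the 6400 of them under 3 the median absolute difference was 0.00365. The rLog transformation shrinks differences of genes with few reads, and a lack of calls there shows no lack of change. From 9 to 11, 2.77% of genes were called lower and 0.424% higher, and above 13 the shares were 0.457% and 0.228%.

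**Figure D1:**
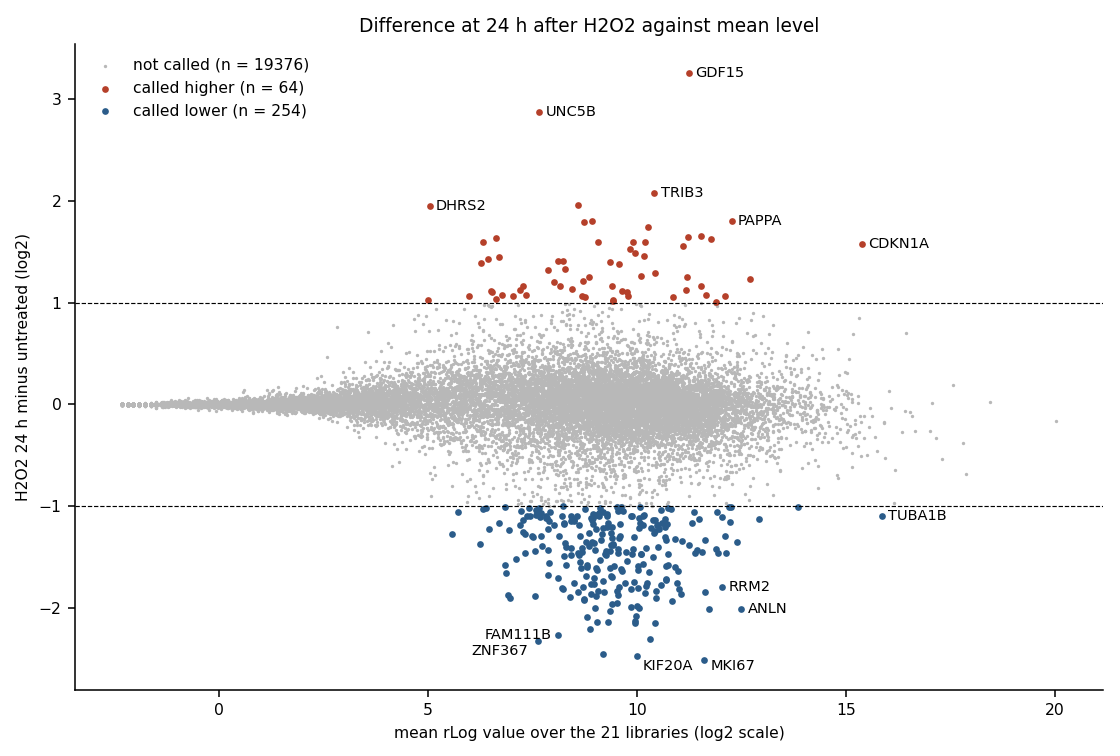
Each point is a gene, with its mean rLog value over the 21 libraries on the x axis and its mean at 24 h after H2O2 minus its mean in untreated cells on the y axis, both on a log2 scale; dashed lines mark a difference of 1 in either direction. The 254 genes called lower reach -2.51 at MKI67, and the 64 called higher reach 3.25 at GDF15.

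Of the 254 genes called lower, 161 belonged to the 12 cell cycle lists described next, 1 was FOS and 92 were in none of the 36 lists. Of 64 genes called higher, 9 were in a p53 list and 12 in the integrated stress response list, with SESN2 in both. CCND2, DUSP4, AREG, ABCA1 and VEGFA were the called members of other lists, and 39 were in no list.

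The mitotic genes fell together. All 29 tested genes of the kinetochore and spindle checkpoint list were lower at an adjusted p-value under 0.05, with a median difference of -1.44. So were all 25 genes of the spindle, kinesin and cytokinesis list, median -1.74. The same held for all 27 genes of the list of mitotic kinases, cyclins and regulators of the anaphase-promoting complex, median -1.69. It also held for all 10 genes of the condensin list, which includes TOP2A and MKI67, median -1.40. Differences over 1 were seen in 25, 25, 26 and 9 of them, in that order. These lists hold genes that dividing cells transcribe in G2 and mitosis, so they were put together with cell division in mind and their common direction is not independent evidence of it.

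MKI67, the proliferation marker that coats mitotic chromosomes, read 12.89, 12.99 and 12.96 in the 3 untreated libraries and 10.51, 10.38 and 10.42 at 24 h, a difference of -2.51 ± 0.08 (standard error of the fit, n = 3 per group, adjusted p = 1.3e-14). KIF20A, a kinesin of the central spindle needed for cytokinesis, read 11.32, 11.43 and 11.40 and then 9.04, 8.88 and 8.82, and fell by 2.47 ± 0.09 (adjusted p = 6.8e-14). PLK1, the kinase that drives mitotic entry and centrosome maturation, went from 11.70, 11.79 and 11.82 to 9.59, 9.38 and 9.42 and fell by 2.30 ± 0.11. In all 3 genes every 24 h library lay more than 2 below every untreated library. The cyclin gene CCNA2 stood at 11.19, 11.17 and 11.20 before and at 9.20, 8.99 and 8.93 after H2O2 and fell by 2.14 ± 0.09, and CDK1, its kinase partner, fell by 1.59 ± 0.07 from 10.72, 10.67 and 10.76. CCNB1, the mitotic cyclin, had 24 h values of 10.36, 10.22 and 10.24 against 12.02, 11.95 and 12.12 in untreated cells. CDC20, which activates the anaphase-promoting complex, fell by 2.14 ± 0.10, CDCA8 of the chromosomal passenger complex fell by 2.14 ± 0.09, and the checkpoint kinases BUB1 and BUB1B were lower, at -1.99 and -2.03. HJURP, the chaperone that loads the centromeric histone CENP-A, read 10.16, 10.20 and 10.22 and 8.12, 7.95 and 7.89. None of its 24 h libraries came within 2 of an untreated library. ASPM at the spindle poles, the kinesins KIF18B and KIFC1, and ANLN of the cleavage furrow differed by -2.13, -2.09, -2.08 and -2.0028, and CENPF and NDC80 of the outer kinetochore by -1.93 and -1.86. In the condensin list, NCAPH and NCAPG were lower, at -1.96 and -1.79, and TOP2A, the topoisomerase that untangles sister chromatids, fell by 1.84 ± 0.09. The smallest fall of the 4 mitotic lists was 0.75 on the log2 scale, in the condensin list.

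**Figure D2:**
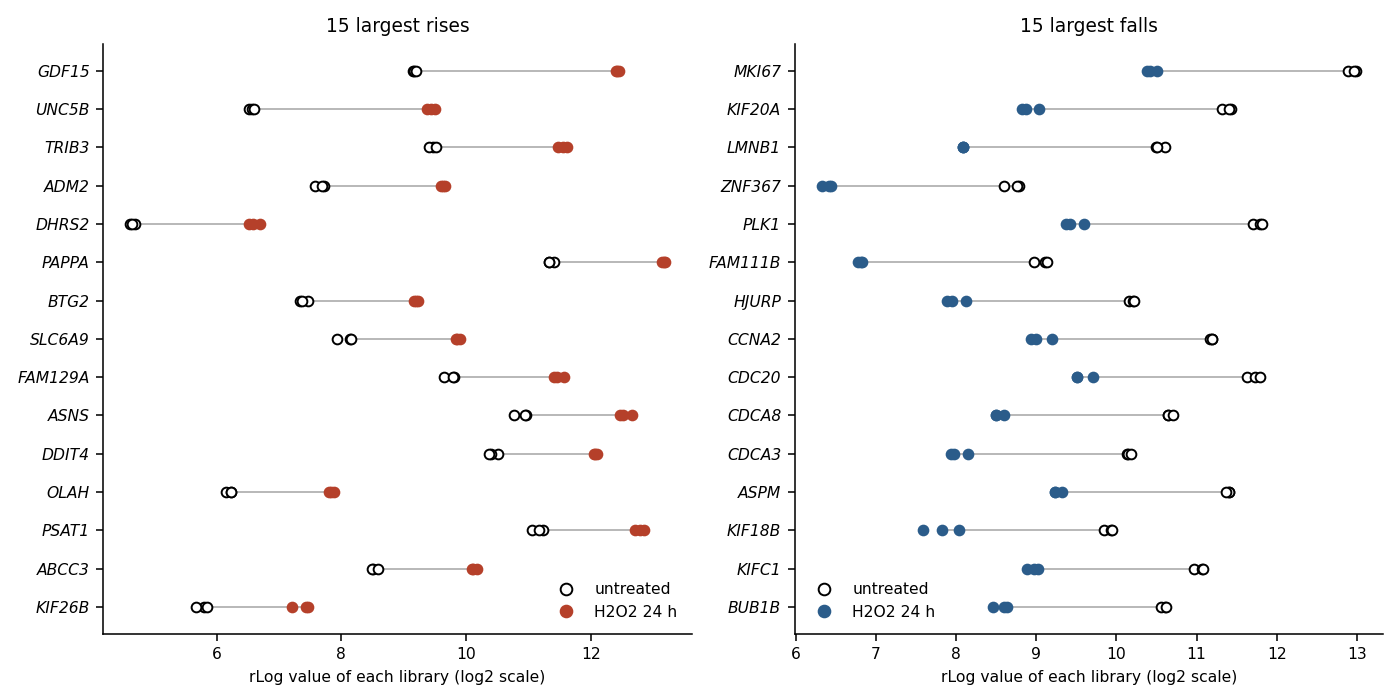
Each row is a gene and each point a library, with untreated libraries as open circles and H2O2 24 h libraries as filled circles, on the rLog (log2) scale of the x axis; the left panel holds the 15 largest rises and the right panel the 15 largest falls. In all 30 genes the 3 filled circles lie on one side of the 3 open ones, and the spread within a group is small beside the gap.

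Promoter motifs were counted in these genes and in all genes. The lists were chosen as cell cycle genes, and 161 of the 254 genes called lower were in a cell cycle list. Shares of motifs that mark cell cycle genes are therefore not independent of that choice. RefSeq gives a start site and a window of 250 bases before to 50 after it for 13966 of the 19694 genes tested (70.9%), among them 209 genes called lower and 48 called higher. Windows were joined by gene name, since RefSeq uses build GRCh38.p14 and the processing notes of the submitters name hg19. The cell cycle genes homology region (CHR), TTTGAA on either strand, is the element to which the MuvB core binds, and CCAAT is the box bound by NF-Y. A CHR stood in 38.8% of the windows of genes called lower (81 of 209) and in 11.1% of all windows (1546 of 13966). Among the 77 windows of the 4 mitotic lists it stood in 49, 63.6%, and 64.9% of the CHR matches in genes called lower lay within 50 bases of the start, against 24.3% over all genes. CCAAT was in 60.3% of the windows of genes called lower and 36.1% of all, and both motifs were in 28.2% against 4.50%. CCAAT alone was not particular to genes called lower. It was in 45.8% of the windows of genes called higher (22 of 48) and 61.5% of those of the integrated stress response list (16 of 26). Of genes called higher, 8.33% had a CHR (4 of 48), and 20.8% had a TATA box, TATAAA, against 7.98% of all windows. The AP-1 site TGACTCA was in 1 of the 209 windows of genes called lower, 0.478%, against 3.54% of all, the cyclic AMP response element (CRE) TGACGTCA in 6.22% against 2.79%, and the CHR variant TTCGAA in 8.61% against 1.61%. A match is a description of letters in the window, not a site shown to be bound.

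The 6 genes with the largest falls among those with both motifs are shown, 5′ to 3′ on the strand of the gene, with every CHR and CCAAT of either strand in capitals. In MKI67 and in CDCA8 a CHR and a CCAAT share 1 base and run together. The windows are MKI67 chr10:128126374-128126673 (reverse strand), PLK1 chr16:23678639-23678938 (forward strand), HJURP chr2:233854486-233854785 (reverse strand), CDC20 chr1:43358731-43359030 (forward strand), CDCA8 chr1:37692266-37692565 (forward strand) and CDCA3 chr12:6851237-6851536 (reverse strand).
MKI67: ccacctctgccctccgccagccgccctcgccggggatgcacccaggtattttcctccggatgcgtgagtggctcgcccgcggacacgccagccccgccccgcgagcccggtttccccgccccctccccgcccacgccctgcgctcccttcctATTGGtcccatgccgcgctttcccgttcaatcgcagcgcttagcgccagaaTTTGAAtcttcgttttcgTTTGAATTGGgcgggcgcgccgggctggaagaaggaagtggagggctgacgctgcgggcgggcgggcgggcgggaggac
PLK1: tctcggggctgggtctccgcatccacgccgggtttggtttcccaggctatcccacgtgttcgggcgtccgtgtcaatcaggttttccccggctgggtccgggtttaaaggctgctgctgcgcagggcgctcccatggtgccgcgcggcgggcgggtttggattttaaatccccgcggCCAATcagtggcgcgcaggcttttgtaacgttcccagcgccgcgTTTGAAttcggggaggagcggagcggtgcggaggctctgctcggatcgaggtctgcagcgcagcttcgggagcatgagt
HJURP: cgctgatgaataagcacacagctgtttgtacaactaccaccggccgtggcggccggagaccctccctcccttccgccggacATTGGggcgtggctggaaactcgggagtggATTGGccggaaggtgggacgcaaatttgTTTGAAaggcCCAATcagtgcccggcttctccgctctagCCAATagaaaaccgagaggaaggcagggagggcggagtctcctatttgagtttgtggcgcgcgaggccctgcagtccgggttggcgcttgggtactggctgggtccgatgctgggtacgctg
CDC20: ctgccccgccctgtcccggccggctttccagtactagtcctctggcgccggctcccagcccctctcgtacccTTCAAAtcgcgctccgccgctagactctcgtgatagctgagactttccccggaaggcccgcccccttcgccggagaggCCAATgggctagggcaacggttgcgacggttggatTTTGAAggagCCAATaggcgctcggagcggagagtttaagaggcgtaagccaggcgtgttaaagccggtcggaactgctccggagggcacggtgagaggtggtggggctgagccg
CDCA8: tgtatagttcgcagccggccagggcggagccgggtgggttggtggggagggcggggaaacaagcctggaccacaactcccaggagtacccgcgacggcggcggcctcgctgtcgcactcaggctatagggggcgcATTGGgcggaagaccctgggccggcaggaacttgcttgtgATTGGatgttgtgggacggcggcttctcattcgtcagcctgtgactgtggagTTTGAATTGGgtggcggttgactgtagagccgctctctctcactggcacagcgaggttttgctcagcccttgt
CDCA3: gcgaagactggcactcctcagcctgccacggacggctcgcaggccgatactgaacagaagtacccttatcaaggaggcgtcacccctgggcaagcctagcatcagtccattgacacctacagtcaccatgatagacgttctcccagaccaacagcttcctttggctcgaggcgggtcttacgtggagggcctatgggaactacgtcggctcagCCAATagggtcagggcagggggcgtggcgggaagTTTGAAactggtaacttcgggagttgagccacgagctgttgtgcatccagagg
Counted from the start site, the CHR of PLK1 began at base -29, that of CDCA8 at -23 and that of CDCA3 at -3. MKI67 had a pair of them, at -47 and -29, and CDC20 at -178 and -65, while the single CHR of HJURP lay farther up, at -111.

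DNA replication genes were lower too. All 35 genes of the replication licensing and fork list were lower, 30 of them by more than 1, with a median of -1.20 and a range of -1.83 to -0.38. MCM10, which starts unwinding of the loaded helicase, read 9.79, 9.83 and 9.80 and 7.98, 8.04 and 7.91 and fell by 1.83 ± 0.04 (adjusted p = 5.9e-16). CDC6, which loads the helicase on origins, read 10.83, 10.79 and 10.81 and 9.12, 9.02 and 9.04 and fell by 1.75 ± 0.03. CLSPN, the adaptor that links stalled forks to CHK1, fell by 1.81 ± 0.05, and the helicase subunits MCM2 and MCM3 were lower, at -1.40 and -1.59. PCNA, the sliding clamp and itself a p53 target, had the smallest fall of the list, from 11.38, 11.43 and 11.39 to 10.98, 11.03 and 11.06, a difference of -0.38 ± 0.04. All 6 genes of deoxynucleotide synthesis were lower. RRM2, the S-phase subunit of ribonucleotide reductase, read 12.65, 12.70 and 12.67 and 10.92, 10.83 and 10.88 and fell by 1.80 ± 0.03 (adjusted p = 1e-18), and TYMS, RRM1 and TK1 were lower, at -1.26, -1.06 and -0.97. RRM2B, the p53-induced form of the small subunit, moved the other way, from 9.85, 9.78 and 9.80 to 10.68, 10.70 and 10.70, a rise of 0.88 ± 0.05.

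The windows of the replication and deoxynucleotide genes held the E2F element more often than a CHR. An E2F element, TTTCCCGC, TTTGGCGC or TTTCGCGC on either strand, was in 17 of 36 (47.2%), against 7 of 77 mitotic windows (9.09%), 21.5% of genes called lower and 3.93% of all genes. A CHR was in 1 of the 36, 2.78%. The windows of the 3 largest falls among those with an E2F element follow, CLSPN chr1:35769929-35770228 (reverse strand), CDC6 chr17:40287629-40287928 (forward strand) and MCM3 chr6:52284693-52284992 (reverse strand), with the element in capitals.
CLSPN: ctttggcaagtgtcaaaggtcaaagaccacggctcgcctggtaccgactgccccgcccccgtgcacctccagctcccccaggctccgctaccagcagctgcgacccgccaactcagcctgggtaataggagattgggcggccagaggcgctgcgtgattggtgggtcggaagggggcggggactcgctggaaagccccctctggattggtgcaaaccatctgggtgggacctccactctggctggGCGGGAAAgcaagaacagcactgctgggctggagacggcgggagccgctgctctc
CDC6: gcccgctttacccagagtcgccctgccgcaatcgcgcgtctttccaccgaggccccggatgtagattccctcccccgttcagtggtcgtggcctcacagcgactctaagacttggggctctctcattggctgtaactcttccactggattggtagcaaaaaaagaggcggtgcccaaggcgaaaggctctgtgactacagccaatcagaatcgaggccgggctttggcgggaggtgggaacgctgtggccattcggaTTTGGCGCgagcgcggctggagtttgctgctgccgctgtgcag
MCM3: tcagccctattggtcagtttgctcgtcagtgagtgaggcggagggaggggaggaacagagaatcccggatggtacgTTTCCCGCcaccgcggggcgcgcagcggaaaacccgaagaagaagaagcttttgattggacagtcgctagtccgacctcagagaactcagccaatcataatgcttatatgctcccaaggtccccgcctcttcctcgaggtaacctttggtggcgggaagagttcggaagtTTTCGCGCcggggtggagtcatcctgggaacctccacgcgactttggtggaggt
The element began at base -5 of CLSPN and at base 8 of CDC6, after the start, and MCM3 had it at -174 and at -4.

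**Figure D3:**
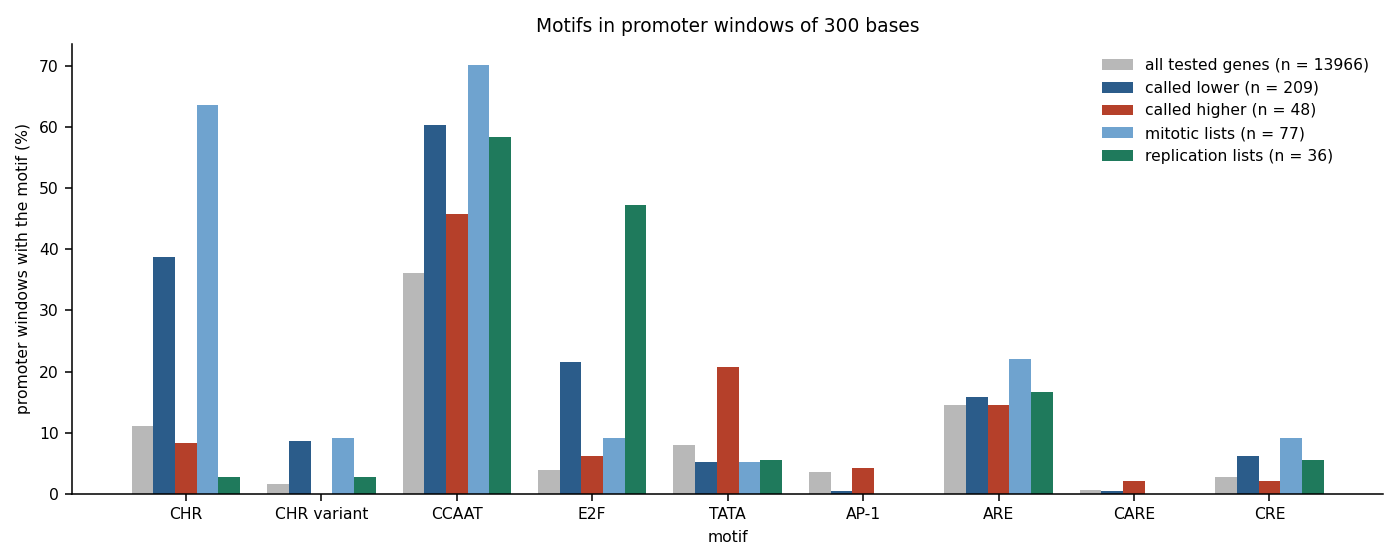
Bars give the percentage of promoter windows (250 bases before to 50 after the start) that hold each motif on either strand (letters as given in the text), for all tested genes, genes called lower, genes called higher, the 4 mitotic lists and the 2 replication lists; the number of windows is in the key. The CHR bar of the mitotic lists reaches 63.6% and the E2F bar of the replication lists 47.2%, against 11.1% and 3.93% of all windows.

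Genes of homologous recombination and the Fanconi pathway, which mend breaks and crosslinks with a sister chromatid as template, were lower in 24 of 25 cases, with a median of -1.14. BRCA1 fell by 1.05 ± 0.06, and BRIP1, BLM, RAD54L and POLQ were lower, at -1.52, -1.49, -1.48 and -1.47. FANCF, at 0.16, was the single member that was higher, and its call was lost when the first or the third 24 h library, or the first or the third untreated library, was left out.

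Among the regulators of the cycle themselves, 14 of 19 genes of the E2F, DREAM and MYB-MuvB list were lower and 2 were higher. The activators fell: E2F1 from 9.75, 9.84 and 9.82 to 8.45, 8.34 and 8.30 (-1.44 ± 0.05), MYBL2 by 1.49 and FOXM1 by 1.43. Of the repressive members, E2F8 fell by 1.37 ± 0.06 and the pocket protein gene RBL1 fell by 1.26 ± 0.05, while RBL2, which encodes p130, differed by -0.10 ± 0.04 and did not pass the test. E2F7, an atypical repressor that p53 induces, was 0.14 higher. Of 8 G1 cyclins and their kinases 2 were higher and 5 lower. CCNE2 read 8.37, 8.33 and 8.25 and 6.45, 6.42 and 6.43 and fell by 1.88 ± 0.05, CCNE1 fell by 0.56 ± 0.06 and CDK2 fell by 1.17 ± 0.04, whereas CCND2 rose from 9.43, 9.23 and 9.24 to 10.41, 10.38 and 10.30, by 1.06 ± 0.09, and CCND1 was 0.28 higher. Of 8 genes named as cyclin-dependent kinase inhibitors 2 rose and 5 fell. CDKN1A read 14.13, 14.14 and 14.08 in untreated cells and 15.68, 15.72 and 15.67 at 24 h, 1.57 ± 0.07 (adjusted p = 3.3e-12), and CDKN2B, which encodes p15, 8.94, 8.83 and 8.80 and 9.65, 9.69 and 9.67. CDKN2C and CDKN3 were lower, at -1.80 and -1.54.

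Chromatin genes that accompany replication were lower in 18 of 19 cases, median -1.22. LMNB1, the B-type lamin of the nuclear envelope, read 10.49, 10.60 and 10.51 and 8.08, 8.09 and 8.09, the third largest fall of all genes at -2.44 ± 0.08. LMNA, the A-type lamin gene, differed by -0.05 ± 0.03 and did not pass the test. UHRF1, which carries DNA methylation through replication, the histone chaperone ASF1B, HMGB2 and the histone variant gene H2AFX were lower, at -1.85, -1.84, -1.54 and -1.47. The clustered histone genes showed no such fall. Of 73 listed, 11 were at 0 in every library, and of the 62 tested 9 were higher and 7 lower, with a median of 0.00. HIST1H2AC rose from 6.64, 6.72 and 6.63 to 7.36, 7.20 and 7.34 and HIST1H2BD from 5.81, 5.68 and 5.75 to 6.34, 6.31 and 6.49. Most clustered histone transcripts lack a poly(A) tail and the libraries were made from mRNA, members are near-identical to each other, with medians aligned 15 were lower, and without the first or the third 24 h library 2 were lower, so counts over this list are uncertain.

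Targets of p53 rose at 24 h, with a wide range of sizes. In the list of arrest and stress targets 17 of 18 genes were higher, median 0.89; in that of death targets 12 of 15 were higher and 2 lower, median 0.51; and in that of repair and metabolism targets 6 of 9 were higher and 1 lower, median 0.65. GDF15, a secreted stress cytokine, had the largest rise of all genes. It read 9.16, 9.16 and 9.19 and 12.41, 12.45 and 12.40, and its 24 h libraries lay close together and far above the untreated ones (3.25 ± 0.11). BTG2, an antiproliferative partner of mRNA deadenylases, rose from 7.47, 7.34 and 7.37 to 9.23, 9.17 and 9.19 (1.80 ± 0.07), and TP53INP1 from 9.15, 9.15 and 9.07 to 10.73, 10.68 and 10.73 (1.59 ± 0.05). SESN2 was 1.55 higher, and CYFIP2, SESN1 and GADD45A 1.11, 0.93 and 0.82. Of the 8 genes of p53 and its feedback loop 5 were higher and 1 was lower, median 0.30. The inhibitor gene MDM2 rose from 11.72, 11.75 and 11.63 to 12.94, 12.98 and 12.88, and the phosphatase gene PPM1D was 0.40 higher.

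Among the p53 death targets, BBC3, which encodes PUMA, was the one called over 1. It read 7.29, 7.46 and 7.47 and 8.58, 8.49 and 8.54. The death receptor genes TNFRSF10B, FAS and TNFRSF10A were higher by 0.90, 0.77 and 0.74, PIDD by 0.61 and TP53I3 by 0.72. PMAIP1, which encodes NOXA, read 10.10, 10.16 and 10.04 and 10.30, 10.34 and 10.31. Its groups did not overlap, and its difference of 0.22 ± 0.07 (adjusted p = 0.013) did not pass the test without the third untreated library, at 0.19. BAX was 0.31 higher and BID 0.23 lower. Of the repair and metabolism targets, FDXR, an electron carrier of mitochondrial steroid and iron-sulphur synthesis, rose from 9.10, 9.17 and 9.18 to 10.63, 10.61 and 10.59, and FUCA1, a lysosomal fucosidase, from 8.45, 8.55 and 8.64 to 9.51, 9.56 and 9.58. XPC and DDB2, the damage sensors of nucleotide excision repair, were 0.65 and 0.21 higher.

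Beyond p53 targets, the BCL2 family list had 10 of 16 genes higher and 3 lower, with BBC3 the only one past a difference of 1. The survival genes BCL2L1 and MCL1 were each 0.30 higher, BAK1 0.39 higher and BCL2 0.42 lower. In the list of caspases and the death receptor complex 9 of 18 genes were lower and 6 higher. From a mean of 9 to 11, 34.1% of all genes were lower and 30.5% higher at the adjusted p-value alone, and nothing is read from the counts of this list. CASP2 fell by 0.55 ± 0.03, from 10.13, 10.11 and 10.08 to 9.57, 9.55 and 9.55. The inflammatory caspase genes CASP1 and CASP4 went up, to 8.34, 8.51 and 8.48 from 7.91, 7.95 and 7.83 for CASP1.

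Genes of the integrated stress response rose at 24 h. Of the 33 genes on this list 30 were higher, 12 of them by more than 1, and 2 were lower, with a median of 0.78 against 0.00 over all genes. TRIB3, a pseudokinase induced by ATF4, read 9.47, 9.41 and 9.52 and 11.47, 11.55 and 11.61 (2.08 ± 0.09, adjusted p = 1.1e-12). The amino acid synthesis genes ASNS, PSAT1 and PHGDH rose by 1.66, 1.62 and 1.07; ASNS, which makes asparagine, went from 10.96, 10.77 and 10.94 to 12.46, 12.52 and 12.66. DDIT4, an inhibitor of mTORC1, stood at 10.51, 10.40 and 10.37 before and 12.06, 12.05 and 12.10 after, DDIT3, which encodes CHOP, at 8.53, 8.43 and 8.57 and 9.84, 9.94 and 9.93, and CHAC1, which degrades glutathione, was 1.53 higher. ATF4 itself was 0.55 ± 0.06 higher, and ATF3 read 8.24, 8.22 and 8.19 and 9.30, 9.25 and 9.41. ATF5 and SLC7A1 were the lower members, at -0.32 and -0.19, and FGF21 did not pass the test. Of 26 promoter windows of this list 3 held the C/EBP-ATF response element (CARE) TGATGCAA or its reverse complement (11.5%), those of CHAC1, AARS and FGF21, against 0.601% of all windows. From 100 bases before the start to 50 after, 1 of 26 held it, 3.85%, against 0.337%. AARS, the alanyl-tRNA synthetase gene, was 0.51 higher.

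NRF2 targets were higher in 21 of 32 cases and lower in 1, with a median of 0.27 and no difference over 1. NQO1, a quinone reductase, read 13.06, 13.05 and 13.07 and 13.80, 13.84 and 13.87 (0.78 ± 0.03, adjusted p = 1.4e-12). FTH1, the ferritin heavy chain, rose from 15.04, 15.05 and 15.05 to 15.84, 15.92 and 15.93, and SQSTM1, the autophagy receptor p62, from 12.60, 12.63 and 12.67 to 13.47, 13.53 and 13.52. HMOX1, heme oxygenase, stood at 9.73, 9.79 and 9.71 and 10.46, 10.56 and 10.50. GCLM, a subunit of the enzyme that starts glutathione synthesis, differed by 0.12 ± 0.04 and was not called, at 0.11, when the third 24 h library, the second untreated library or the third untreated library was left out, and GCLC at 0.02 ± 0.06 did not pass the test, nor did NFE2L2, which encodes NRF2, at 0.06 ± 0.04. The core of the antioxidant response element (ARE), TGACNNNGC, was in 25.0% of the 24 windows of this list (6 windows) and 14.6% of all windows. It was in 34.6% of the windows of the integrated stress response list (9 of 26). From 100 bases before the start to 50 after, 3 of 24 held it, 12.5%, against 8.74%.

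Of the 23 genes of the peroxide and superoxide enzyme list 10 were higher and 4 lower (2 without the third untreated library, 1 with quantile normalization), with a median of 0.07. From a mean of 9 to 11, 30.5% of all genes were higher and 34.1% lower at the adjusted p-value alone, and nothing is read from the counts of this list. CAT, catalase, read 9.51, 9.62 and 9.56 and 9.76, 9.76 and 9.76 (0.20 ± 0.03). GPX1 was 0.53 higher and GPX3 0.52 higher. GLRX, a glutaredoxin, had the largest rise of the list, from 9.88, 9.73 and 9.79 to 10.71, 10.75 and 10.85. Mitochondrial PRDX3 and SOD2 were lower, at -0.22 and -0.13. Of 10 metallothionein and zinc genes 5 were higher, and 3 without the third 24 h library or without the second untreated library. Nothing is read from that count either. The zinc exporter gene SLC30A1 rose from 8.26, 8.26 and 8.40 to 8.90, 8.90 and 8.91, while MT2A, at 0.09 ± 0.08, did not pass; the MT1 genes are near-identical copies and their reads may have been split between them.

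More heat shock chaperone genes were lower than higher at 24 h. Of 19 heat shock chaperones 12 were lower and 3 higher, median -0.22, and of 22 genes of the endoplasmic reticulum (ER) list 12 were lower and 7 higher, median -0.11. From a mean of 11 to 13, 41.9% of all genes were lower and 27.8% higher at the adjusted p-value alone, and above 13, 46.1% and 31.3%. The ER counts lay near those shares, and nothing is read from them. HSPD1, the mitochondrial chaperonin, read 13.33, 13.34 and 13.28 and 12.78, 12.78 and 12.86, HSP90AA1 15.30, 15.33 and 15.25 and 14.82, 14.80 and 14.85, and HSPA8 15.94, 15.98 and 15.96 and 15.51, 15.50 and 15.51. The groups of all 3 were apart. PDIA4, an ER disulphide isomerase, fell by 0.59 ± 0.02 and MANF fell by 0.50 ± 0.04. HSPA5, the ER chaperone BiP, read 15.04, 15.02 and 14.98 and 14.84, 14.82 and 14.86 (-0.17 ± 0.04), a difference that did not pass with quantile normalization, at -0.10. ERN1, which encodes the ER stress sensor IRE1, went the other way, from 7.61, 7.56 and 7.48 to 8.28, 8.39 and 8.26. HSPA1A at -0.17 ± 0.07 was not called when 1 of 4 libraries was left out (24 h replicates 1 and 3, untreated replicates 1 and 2), at -0.13 to -0.19, and the gene is near-identical to HSPA1B, so its reads may have been split.

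Of 23 AP-1 and immediate-early genes 6 were higher and 6 lower, median 0.06. Over all genes 20.2% were higher and 19.9% lower at the adjusted p-value alone, and nothing is read from the counts of this list. FOS read 6.82, 6.93 and 6.89 and 5.94, 5.92 and 5.74 and fell by 1.02 ± 0.08, and EGR1 fell by 0.84 ± 0.08, from 11.21, 11.43 and 11.13 to 10.45, 10.43 and 10.38. JUN was 0.32 lower. DUSP4, a nuclear phosphatase of ERK and JNK, rose from 7.57, 7.60 and 7.58 to 8.77, 8.74 and 8.71 (1.16 ± 0.04), and KLF4 by 0.78. Of 18 genes of the EGF receptor list 10 were higher and 3 lower. The ligand gene AREG rose from 5.59, 5.67 and 5.58 to 6.67, 6.64 and 6.72, EREG by 0.78 and EGFR by 0.36, whereas the ligand gene HBEGF was 0.26 lower. All groups were cultured with added EGF.

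Of 39 collagen and matrix genes 22 were lower and 10 higher, median -0.12. COL1A1 read 17.94, 18.00 and 17.98 and 17.68, 17.58 and 17.52 and VCAN 12.88, 12.94 and 12.93 and 12.30, 12.30 and 12.35, and COL6A3 rose, from 16.24, 16.25 and 16.29 to 16.92, 16.97 and 16.99. With quantile normalization COL1A1 was 0.06 higher, and 14 genes of the list were lower and 13 higher, so the direction of this list depended on the scaling. In the YAP and TGF-beta list 14 of 27 genes were lower and 8 higher. From a mean of 11 to 13, 41.9% of all genes were lower and 27.8% higher at the adjusted p-value alone, and above 13, 46.1% and 31.3%. Nothing is read from the counts of this list. CTGF, a YAP target, fell by 0.73 ± 0.04 from 15.14, 15.20 and 15.20, CYR61 fell by 0.69 ± 0.02 and THBS1 fell by 0.64 ± 0.06. Of 22 inflammatory and NF-kB genes 8 were higher and 2 lower, median 0.02 (0.00 with medians aligned). Over all genes 20.2% were higher and 19.9% lower at the adjusted p-value alone, and nothing is read from the inflammatory counts. IL6 lay between 4.03 and 4.15 in all 6 libraries and did not pass the test, IL8 was 0.23 higher and IL1B 0.35 higher, and CCL2 was listed at 0. Of 29 interferon-stimulated genes 14 were higher and 1 lower, with XAF1 going from 7.99, 7.94 and 7.99 to 8.79, 8.91 and 9.02. Without the third 24 h library 9 were higher and 3 lower, in a fit of both groups alone 8 were higher, and with medians aligned 13 were higher and 6 lower. MX1 spread from 5.94 to 6.62 over the 24 h libraries, and the call of its difference of 0.54 ± 0.16 was lost without the third of them, at 0.35.

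The counts of metabolic lists are read beside those of well-expressed genes: from a mean of 9 to 11, 30.5% of all genes were higher and 34.1% lower at the adjusted p-value alone, and from 11 to 13, 27.8% and 41.9%. Of 28 genes of sterol and fatty acid synthesis 21 were lower and 1 higher, median -0.27. SCD, a fatty acid desaturase, read 13.59, 13.17 and 13.24 and 12.88, 12.80 and 12.81 (-0.50 ± 0.08, adjusted p = 5.6e-05), and HMGCS1, an early enzyme of cholesterol synthesis, 10.73, 10.53 and 10.51 and 10.29, 10.15 and 10.14 (-0.40 ± 0.06). ABCA1, which exports cholesterol, was the single higher member, at 9.18, 8.83 and 9.00 and 10.01, 10.07 and 10.01. Lysosome and autophagy genes were higher in 18 of 25 cases and lower in none, median 0.21, with MAP1LC3B at 11.49, 11.43 and 11.46 and 12.15, 12.19 and 12.22, GABARAPL1 0.72 higher, TFEB, the regulator of lysosomal genes, 0.66 higher and GLB1 0.26 higher. VEGFA rose from 9.62, 9.49 and 9.43 to 10.75, 10.79 and 10.78, and ANGPTL4 and NDRG1 by 0.98 and 0.83, while LDHA was 0.51 lower; the glycolysis and hypoxia-type list as a whole had 8 of 23 higher and 7 lower, against 8 and 10 with medians aligned and 8 and 4 with quantile normalization. Of 76 ribosomal protein genes 43 were higher and 1 lower with a median of 0.09; 27 were higher without the first untreated library, 28 without the second, 29 without the second 24 h library and 30 without the third. Of 75 respiratory chain genes 20 were higher and 5 lower, median 0.03; 12 were higher without the first untreated library, 13 without the second 24 h library and 32 with quantile normalization. Of 38 proteasome genes 9 were higher and 14 lower, median -0.03, against 12 higher and 5 lower with quantile normalization. The respiratory chain, glycolysis and proteasome counts lay near or below those of all genes at these levels, and nothing is read from them. Ribosomal protein reads can be split with pseudogene copies.

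**Figure D4:**
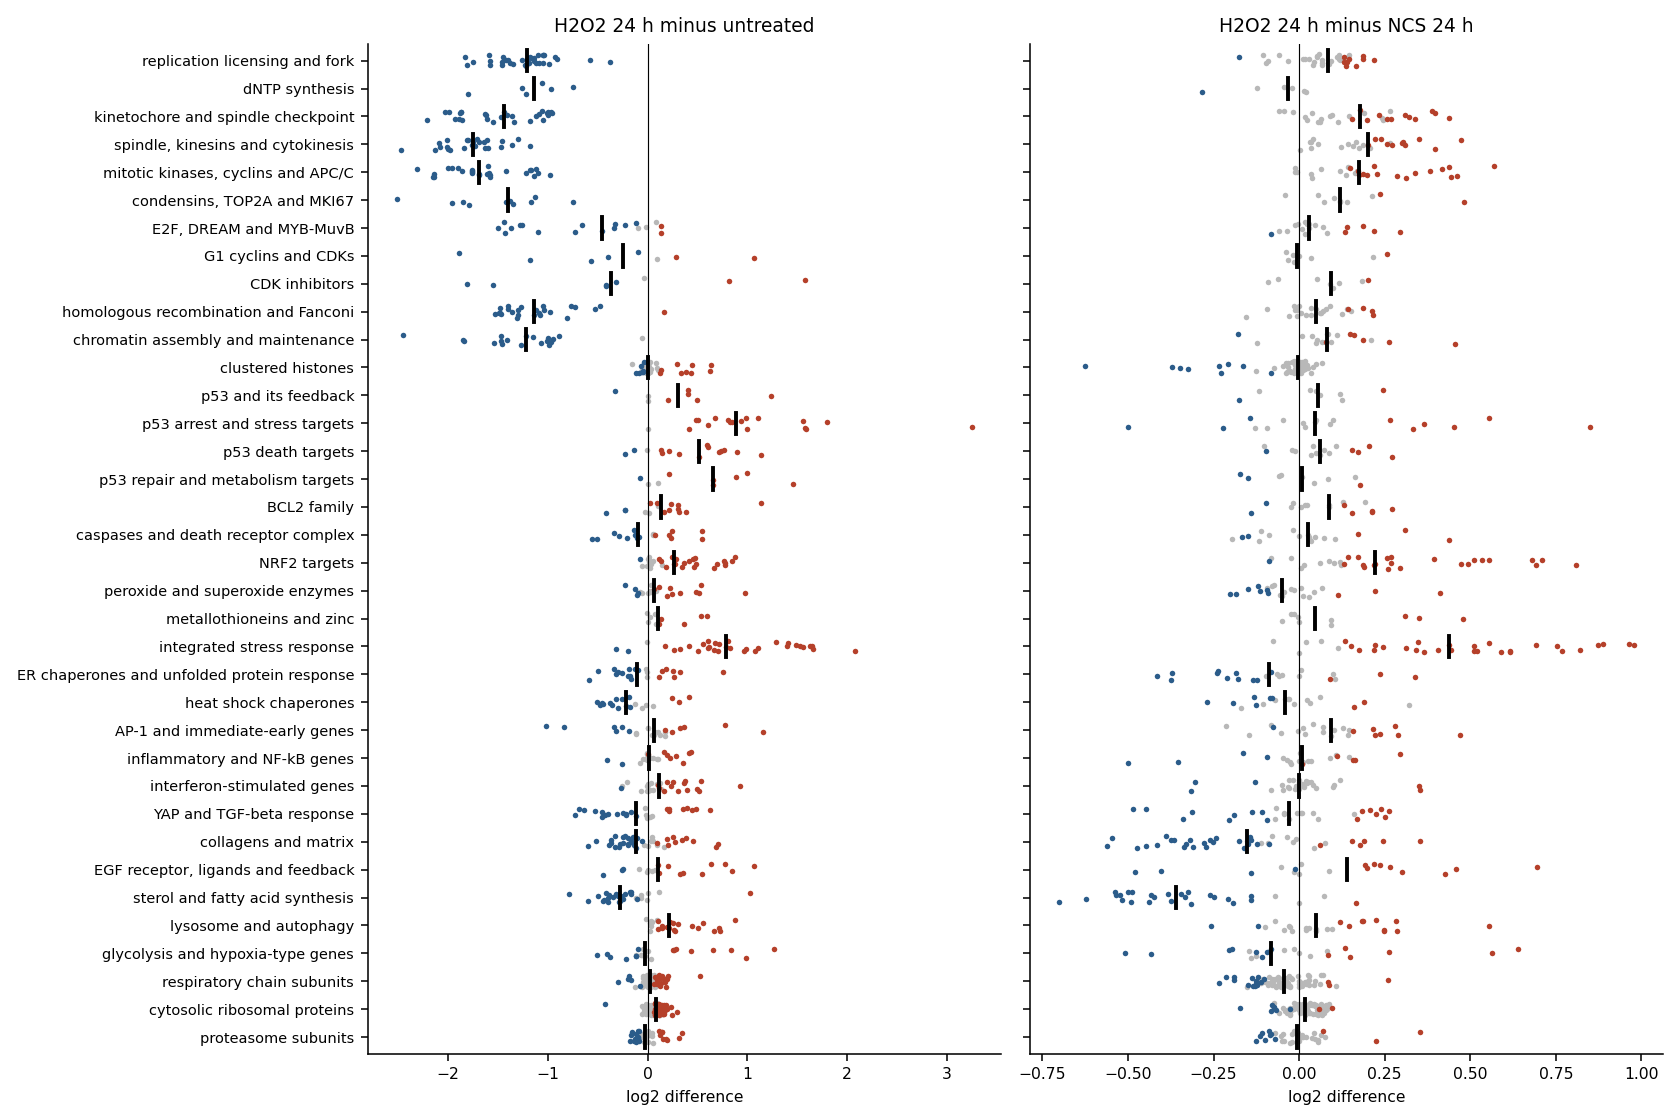
Each row is a gene list and each point a tested member, with its log2 difference on the x axis, H2O2 24 h minus untreated on the left and H2O2 24 h minus NCS 24 h on the right; red and blue points passed an adjusted p-value of 0.05 as higher and lower, grey points did not, and black bars are medians. The mitotic and replication lists lie wholly below 0 on the left, and the integrated stress response list has its median at 0.78 on the left and 0.44 on the right.

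Many of the largest rises belonged to none of the lists. UNC5B, a netrin receptor, read 6.53, 6.56 and 6.61 and 9.37, 9.43 and 9.49 (2.87 ± 0.08, adjusted p = 2.7e-15), the second largest rise of all genes. DHRS2, a mitochondrial dehydrogenase, went from 4.61, 4.70 and 4.65 to 6.51, 6.70 and 6.58, and PAPPA, a secreted protease that frees insulin-like growth factor from its binding proteins, from 11.41, 11.33 and 11.32 to 13.13, 13.17 and 13.18. In none of the 3 genes did the groups come near each other. PAPPA2, a second protease of that kind, was 1.45 higher. ADM2, a peptide hormone, read 7.73, 7.58 and 7.69 and 9.60, 9.63 and 9.66; SLC6A9, a glycine transporter, 8.13, 7.93 and 8.15 and 9.84, 9.89 and 9.85; and FAM129A 9.80, 9.64 and 9.79 and 11.41, 11.46 and 11.57. OLAH, a thioesterase of fatty acid synthesis, ABCC3, an efflux pump for organic anions, and KIF26B rose by 1.63, 1.60 and 1.59. SERPINE2, ULBP1, a ligand that marks stressed cells for natural killer cells, and PLAU, urokinase, were 1.59, 1.38 and 1.16 higher. Among the 92 lower genes in no list, many are also known from dividing cells. ZNF367 read 8.78, 8.76 and 8.60 and 6.32, 6.41 and 6.44 (-2.32 ± 0.07), FAM111B 9.11, 9.14 and 8.98 and 6.83, 6.82 and 6.78 (-2.26 ± 0.04), and CDCA3 10.14, 10.14 and 10.19 and 8.15, 7.98 and 7.93. The tubulin genes TUBA1B and TUBB4B and the microtubule regulator gene STMN1 were lower by 1.09, 1.01 and 1.12. TRPC6 and NRXN3, a cation channel and a cell adhesion gene, were 1.00 and 1.03 lower.

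Set against 8 h after H2O2, the 24 h libraries showed lower cell cycle genes and lower levels of stress genes that were high early. Of all genes 8 were higher by more than 1, 0.0406%, and 74 were lower, 0.376%. At the adjusted p-value alone 3816 were higher, 19.4%, and 4569 lower, 23.2%, or 54.5% lower, against 67.5% lower with medians aligned. All 35 replication genes, 29 kinetochore genes, 25 spindle genes and 27 genes of the mitotic kinase list were lower at 24 h than at 8 h. CDC6 had a mean of 10.69 at 8 h and read 9.12, 9.02 and 9.04 at 24 h (-1.63 ± 0.03), and CDCA5, the sororin of sister chromatid cohesion, 10.66 at 8 h and 9.14, 9.13 and 9.04 at 24 h (-1.56 ± 0.04). FAM111B, CCNE2 and ZNF367 differed by -1.73, -1.48 and -1.48. For these genes most of the distance from untreated cells was covered after 8 h. PLK1 had come further by then, with means of 11.77, 11.46, 10.46 and 9.46 in untreated cells and at 4 h, 8 h and 24 h.

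The largest falls from 8 h to 24 h among other genes were in stress genes that had been high early. FOSB had means of 11.81 at 4 h and 8.83 at 8 h and read 6.95, 7.24 and 6.96 at 24 h, near its untreated 6.95, 6.88 and 6.95. HMOX1 had means of 13.18 and 12.24 at 4 h and 8 h and lay at 10.51 at 24 h (-1.74 ± 0.05 against 8 h). HSPA6, an inducible heat shock gene, went from 7.87 and 7.55 to 5.66 and XIRP1 from 7.26 and 6.39 to 4.89. Of these, XIRP1 and FOSB did not pass the test against untreated cells at 24 h. HSPA5 was -1.17 relative to 8 h and ATF3 -1.21, and of 22 ER genes 17 were lower than at 8 h. TRIB3 and PSAT1 did not pass against 8 h, at 0.16 ± 0.09 and 0.12 ± 0.07. The 8 genes higher than at 8 h were DHRS2 (1.51), OLAH (1.46), PRKG1 (1.14), ABCC3 (1.12), PAPPA (1.11), SLC16A4 (1.08), TM6SF1 (1.05) and PNPLA3 (1.00). DHRS2 and OLAH had means of 5.09 and 6.38 at 8 h, against 4.65 and 6.21 in untreated cells, and most of their rise came after 8 h.

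**Figure D5:**
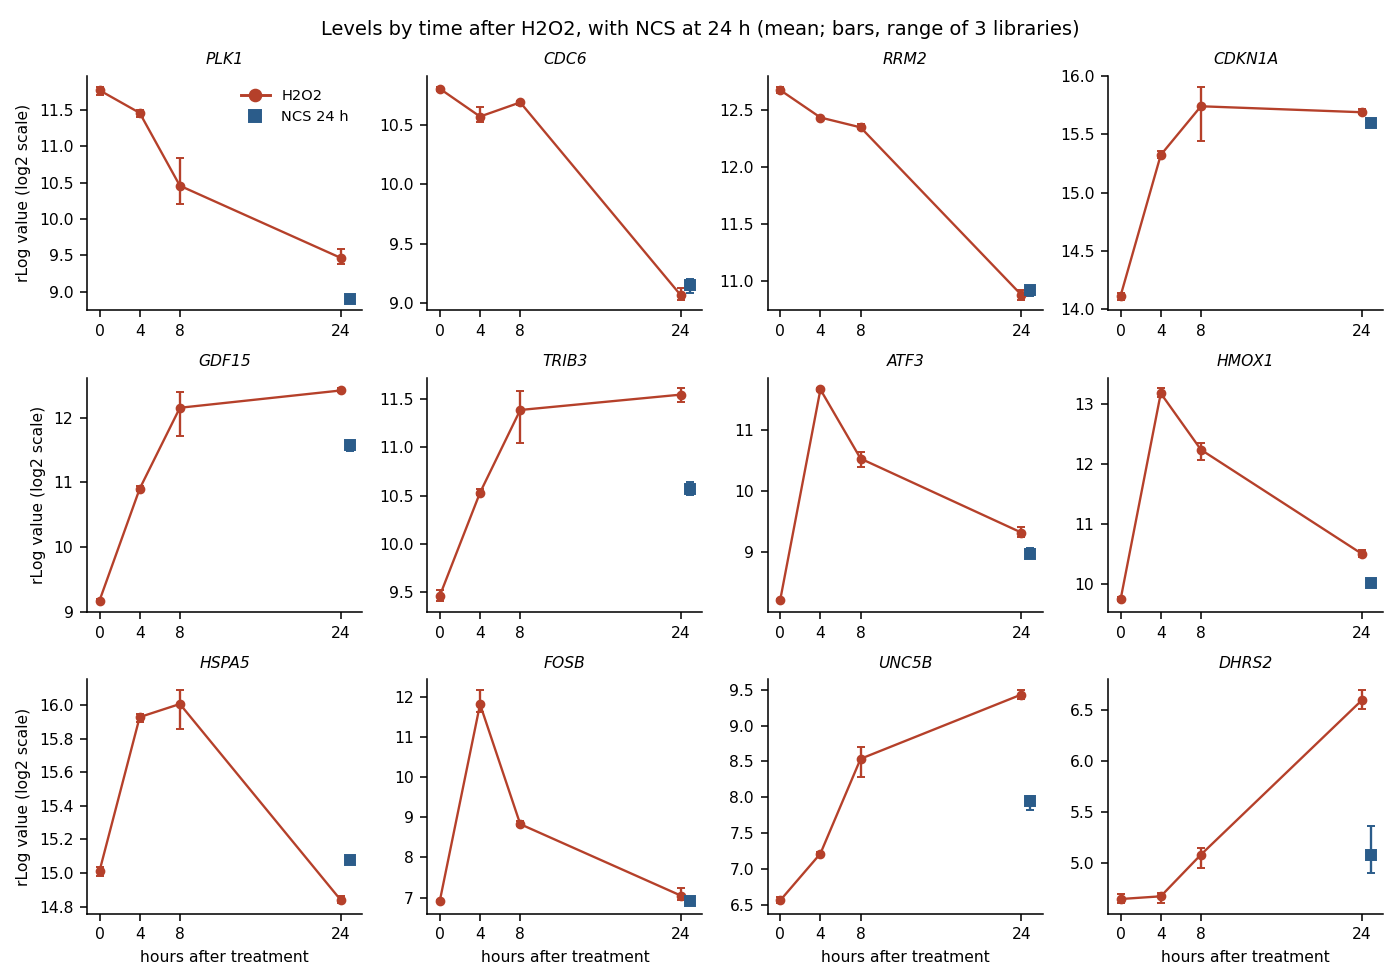
Each panel is a gene, with hours after treatment on the x axis and the rLog value (log2 scale) on the y axis; red circles and lines are means of H2O2 libraries (0 h is untreated), the blue square is NCS at 24 h, drawn just right of 24 h, and bars span the lowest to the highest of 3 libraries. PLK1, CDC6 and RRM2 descend to 24 h, ATF3, HMOX1, HSPA5 and FOSB peak at 4 h or 8 h, and UNC5B and DHRS2 are highest at 24 h, above the NCS square.

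Against NCS at the same 24 h, few genes differed by more than 1. At 24 h, 3 genes were more than 1 higher with H2O2, 0.0152%, and none was more than 1 lower, 0% (0 in limma also at an unadjusted p-value under 0.05, with a lowest difference of -0.94). At the adjusted p-value alone 2171 genes were higher, 11.0%, and 2144 lower, 10.9%, or 49.7% lower, against 76.5% lower with medians aligned. The 3 genes were DHRS2, which had a mean of 5.08 with NCS and read 6.51, 6.70 and 6.58 with H2O2 (1.51 ± 0.09, adjusted p = 2.1e-09), UNC5B with 7.94 and 9.37, 9.43 and 9.49 (1.49 ± 0.08), and G0S2, an inhibitor of triglyceride breakdown, with 6.17 and 7.19, 7.24 and 7.19 (1.03 ± 0.07). G0S2 fell under a difference of 1 without the first NCS library, which left 2 genes. Without the first H2O2 24 h library 5 genes passed, TRIB3 and PSAT1 being the added ones.

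Genes of the integrated stress response were higher with H2O2 than with NCS. Of the 33 genes 28 were higher with H2O2 than with NCS and none was lower, with a median of 0.44, and the count was 28 with medians aligned and 30 with quantile normalization. TRIB3 was 0.98 ± 0.09 higher, PSAT1 0.96 ± 0.07, DDIT4 0.89 ± 0.08, ASNS 0.87 ± 0.07 and DDIT3 0.51 ± 0.07. NRF2 targets were higher in 22 of 32 cases and lower in 1, median 0.22. NQO1 had a mean of 13.03 with NCS, close to 13.06 in untreated cells, against 13.84 with H2O2 (0.81 ± 0.03, adjusted p = 3.1e-11), and TXNRD1 and FTH1 were 0.71 and 0.68 higher. Sterol and fatty acid synthesis genes were lower in 24 of 28 cases and higher in 1, median -0.36, with 25 and 23 lower under the other scalings. SCD had means of 13.53 with NCS and 12.83 with H2O2 (-0.70 ± 0.08), and INSIG1 differed by -0.54 and SQLE by -0.52. Matrix genes were lower in 24 of 39 cases, COL3A1 and COL1A1 by 0.55 and 0.45; 16 were lower with quantile normalization.

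Part of the mitotic genes were higher with H2O2 than with NCS. In the list of mitotic kinases, cyclins and regulators of the anaphase-promoting complex, 16 of 27 genes were higher with H2O2 and none was lower. Of 29 kinetochore genes 12 were higher and none lower, of 25 spindle genes 11 and none, and of 10 genes of the condensin list 2 and none. Over all genes 11.0% were higher with H2O2 and 10.9% lower at the adjusted p-value alone. Those shares include the 8013 genes with a mean under 5. Nothing is read from the condensin count. In the spindle list 14 were higher with medians aligned and 7 with quantile normalization. PLK1 had means of 8.89 with NCS and 9.46 with H2O2, against 11.77 in untreated cells (0.57 ± 0.11 between the agents, adjusted p = 0.00055). TOP2A and HMGB2 were 0.48 and 0.46 higher than with NCS, and CDC20 0.44. Of 35 replication genes 9 were higher and 1 was lower (3 with medians aligned or with quantile normalization), and for MCM10 and RRM2 the differences of 0.04 ± 0.04 and -0.04 ± 0.03 did not pass the test. Of the 18 p53 arrest and stress targets 6 were higher with H2O2, GDF15 by 0.85 and GADD45A by 0.45, and 3 were lower, LIF by 0.50, while CDKN1A at 0.09 ± 0.07 and RRM2B at 0.04 ± 0.05 did not pass.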

How the data were processed

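The authors extracted RNA from hTERT-HPNE cells, made stranded mRNA libraries and sequenced them as paired ends. Reads were aligned with HISAT2 to hg19 and counted with htseq-count, and the authors deposited rLog values from DESeq2, which are on a log2 scale and shrink differences of genes with few reads. The annotation and the strand setting of the counting are not given in the sources used here. Raw counts were not analysed here, so no depth or counting interval can be given.

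Of 23368 genes, 3674 were 0 in all 21 libraries and were left out. Names of 28 genes had been turned into dates, and 2 names were listed more than once. Differences were fitted in limma 3.58.1 (R 4.3.3) over all 7 groups at once, with a variance trend, and p-values were adjusted over 19694 genes by the Benjamini-Hochberg method. A gene was called at a difference over 1 with an adjusted p under 0.05, and gene lists were counted at the adjusted p alone. An exact permutation test of 3 against 3 libraries cannot go below 0.1. The fit was tested on simulated data.

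The genes named were the 15 largest rises and falls with non-overlapping libraries, core members and up to 4 largest differences of each list, genes the study names, and the largest differences from 8 h and from NCS. Others were named after their values were seen. The members and lists were chosen with earlier results of these data known. Promoter windows are from RefSeq (GRCh38.p14), joined by symbol. Alternatives were other scalings, filters and fits, a difference of 0.58, and leaving out each library. Results for some genes are not reported here.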

Additional observations from a re-analysis of the deposited data

Results flagged for a closer look

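Between 24 h and 8 h after H2O2, 82 genes differed by more than 1, a tested difference between the time points of one treatment; 74 were lower at 24 h and 8 higher. Between H2O2 and NCS at 24 h, 3 genes differed by more than 1, also by a test of the difference itself. UNC5B was 1.49 higher with H2O2 (adjusted p = 2.4e-10), with means of 6.56 in untreated cells, 7.94 with NCS and 9.43 with H2O2. DHRS2 was 1.51 higher (adjusted p = 2.1e-09), with means of 4.65, 5.08 and 6.59 in the same order. G0S2 was 1.03 higher (adjusted p = 8.4e-09), with means of 5.82, 6.17 and 7.21. Adjusted p-values are from limma over 19694 genes, n = 3 per group. Groups of 3 libraries were too small for the test of single outlying libraries.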

How the results depend on the processing

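With library medians aligned or with quantile normalization, 62 to 75 genes were called higher and 242 to 264 lower. Deviations of same-numbered libraries correlated at -0.0652, 0.0375 and 0.0401, within the range of differently numbered ones, -0.1198 to 0.093. Neither the labels nor the paper says whether same-numbered libraries were handled together, and with 3 libraries per group these values cannot settle it. A fit with the replicate number as a block gave 64 higher, 254 lower, 82 between 24 h and 8 h and 3 between H2O2 and NCS at 24 h. Leaving out 1 library gave 64 to 70 higher, 250 to 263 lower, 73 to 92 between 24 h and 8 h, 2 to 5 between the agents, 600 to 625 list members passing (651 with all libraries) and 197 to 201 of the named genes. At a difference over 0.58, 313 genes were higher and 585 lower, 535 differed from 8 h and 90 from NCS. At the adjusted p alone these were 3969, 3911, 8385 and 4315.

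Differences that changed sign with quantile normalization were those of ID1 (0.0209), COL1A1 (0.0620) and BNIP3 (0.0305). Leaving out 1 library moved ID1 between -0.0618 and 0.0281 (0.0281 without the second untreated library, 0.0005 without the third 24 h library) and BNIP3 between -0.0351 and 0.0093 (0.0093 without the first untreated library, 0.0054 without the second 24 h library). The cause was not tested. In a window of 100 bases before to 50 after the start, the CHR was in 4.37% of all promoters, 30.6% of genes called lower and 2.08% of genes called higher, and the E2F element in 1.96%, 18.7% and 2.08%. The number of reads behind a value is unknown, so a gene with a low value and no call may still have changed.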
